A study of Mus musculus with 36 samples.

Results

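The comparison set 7 libraries of mouse 8-cell embryos labelled VP64 against 6 libraries of the same stage labelled NI, which are 13 of the 36 RNA-seq libraries of the series, and followed it across all genes. Members were chosen by their labels for developmental stage and treatment, with no measured value. Each library was made with SMART-seq v4 from the total RNA of a pool of 4 to 5 embryos. Another group of the stage, labelled Ctrl, holds 6 libraries and is given beside the other groups. The labels do not spell out NI, do not say what the Ctrl embryos received, and give neither strain nor the hour of collection. They describe all groups of the series as injected embryos, and nothing in them says that the pools came from separate matings or days, so a p-value here reflects only how far these pools differ among themselves, which may be technical.

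VP64 is a strong transcriptional activation domain, built from repeats of a minimal herpesvirus VP16 activation sequence. It recruits general activators to the DNA to which it is tethered. The series concerns the activation of LINE-1 after fertilisation and its relation to chromatin accessibility, and the published study is known for directing VP64 to LINE-1 retrotransposons with a designed DNA-binding protein. LINE-1 is a long repeat element that is transcribed in the early mouse embryo. The LINE-1 copies themselves are not analysed here, since the deposited table counts annotated genes.

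The mouse embryo starts its main wave of transcription at the 2-cell stage, when a set of short-lived genes is switched on and maternal RNA is cleared. By the 8-cell stage these genes are mostly silent again, and the embryo compacts through E-cadherin and polarises its cells. It then begins to set apart trophectoderm from inner cell mass, a choice in which the Hippo pathway acts. The comparison asks which genes of this programme differ in level at the 8-cell stage between embryos labelled VP64 and embryos labelled NI.

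Total counts ran from 1462479 to 6699587 in the VP64 libraries, from 1103574 to 13583527 in the NI libraries and from 1669772 to 7063742 in the Ctrl libraries. The stage label held in the markers: 9 genes of the 2-cell embryo summed to between 9.03 and 93.8 CPM (a library's counts scaled to a fixed total) in the 19 libraries of 8-cell embryos. The 17 libraries of 2-cell embryos are labelled Ctrl, NI or KRAB, a treatment label found only at that stage. In them the sum ran from 383 CPM (NI) to 3498 CPM (KRAB). At equal depth of 1103574 counts, 11694 ± 883 genes (SD, n = 7) were detected in VP64 and 11267 ± 574 (SD, n = 6) in NI (exact permutation test over 1716 splits, two-sided p = 0.331, adjusted over 2 measures 0.662). Without VP64 replicate 7 that difference became 729 genes (exact permutation p = 0.0281). The 50 most abundant genes of each library took 20.3 ± 4.74% of the counts in VP64 and 20.7 ± 2.72% in NI (exact permutation p = 0.879).

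Several libraries stood apart from the rest of their group. The mean log2(CPM + 1) of genes with short transcripts (1313 bases or less) exceeded that of genes with long ones (6573.5 bases or more) by over 2 in VP64 replicate 7 (2.45), NI replicates 5 (2.08) and 6 (2.64) and Ctrl replicate 6 (2.34). VP64 replicate 7 also had the lowest rank correlation with its own group, at a median of 0.83 against 0.90 to 0.94 for the other VP64 libraries, and the NI libraries ran from 0.82 to 0.91. VP64 replicate 6 held 120 counts of Cyp11a1 and 256 of Hsd3b1, enzymes of steroid synthesis that mark ovarian somatic cells and trophoblast. Its cumulus and granulosa marker sum was 315 CPM against 0.55 to 2.45 CPM in the other VP64 libraries and 0.374 to 1.43 CPM in NI. Most of that sum came from the same genes, Hsd3b1 (208 CPM) and Cyp11a1 (97.4 CPM). Of the 10 markers, Has2, Ptx3, Cyp19a1 and Fshr had no counts in any VP64 library. The part of the libraries named here in the results was not tested. Counts of genes are therefore also given without the 4 libraries set apart by transcript length, an alternative chosen after seeing the data, and without VP64 replicate 6, where they moved by over 1.5 times. Without the 4 libraries the length difference was 1.10 to 1.85 in VP64 and 0.365 to 1.02 in NI, with no overlap. In every result of that setting, group and length difference therefore cannot be told apart.

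**Figure D1:**
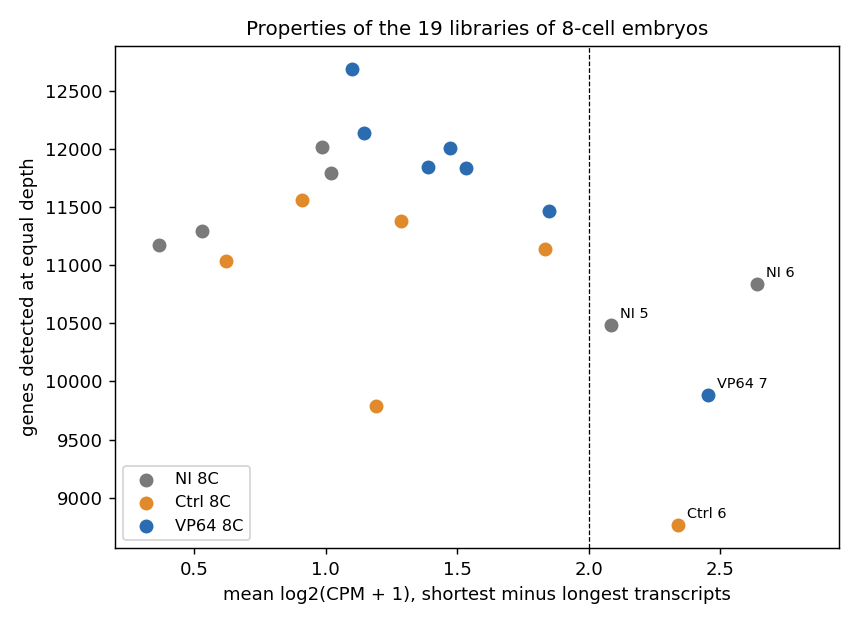
Each point is 1 of the 19 libraries of 8-cell embryos; the x axis is the difference in mean log2(CPM + 1) between genes with the shortest and the longest transcripts, and the y axis is the number of genes detected when every library is thinned to 1103574 counts. The 4 named libraries lie beyond 2, the dashed line, and Ctrl replicate 6 and VP64 replicate 7 have the fewest detected genes of their groups.

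No gene passed an adjusted p of 0.05 by edgeR's quasi-likelihood test over 9850 genes, so 0% were called. At an unadjusted p under 0.05 the count was 706 genes (7.17%), of which 371 (3.77%) had higher and 335 (3.4%) lower levels in VP64, where 492.5 are the number at that threshold if no gene differed. Scaled by library totals in place of TMM factors (edgeR's trimmed mean normalisation), 395 of the 9850 were higher and 176 lower. With no filter on low counts 1058 of 17836 genes were higher and 578 lower at that threshold. The median log2 fold change over all genes was -0.07, and 43.3% of genes had a positive value. The median 95% interval reached 1.01 to each side on the log2 scale, so at this depth and spread a typical gene's interval spanned a doubling and a halving. For 1764 genes (17.9%) the whole interval lay within 2-fold.

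Other tools on the same counts made calls. DESeq2 called 21 genes (0.207%), 14 higher (0.138%) and 7 lower (0.069%) in VP64, and limma-voom with sample weights called 14 (0.142%), 11 higher (0.112%) and 3 lower (0.0305%). They shared 8 genes, 38.1% of the DESeq2 list and 57.1% of the limma-voom list: Jarid2, Gm2016, Ldha, Slc25a31, Gm8300, Gm5662, Acer1 and Tbx20. Without the 4 libraries set apart by transcript length edgeR called 6 of 10203 genes, 5 higher and 1 lower in VP64. These were Jarid2, Slc25a31 and 4 genes of 1 multicopy family, Gm2016, Gm5662, Gm2022 and BB287469. In the same setting, where the length difference did not overlap between VP64 and NI, 1532 genes (15%) had an unadjusted p under 0.05. Without VP64 replicate 6 edgeR called none and 390 genes (3.98%) passed the unadjusted threshold, and without NI replicate 1 the count was 470. No gene was called when any 1 of the 19 libraries was left out alone.

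**Figure D2:**
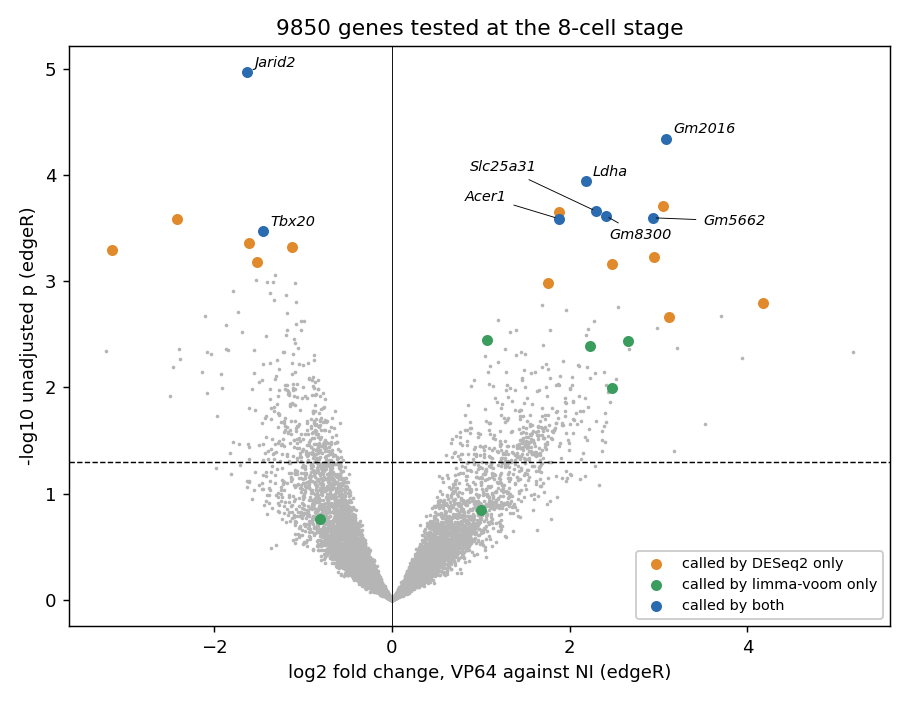
Each point is 1 of 9850 genes; the x axis is the log2 fold change of VP64 against NI and the y axis is -log10 of the unadjusted p, both by edgeR's quasi-likelihood test, with the dashed line at 0.05. Coloured points are the genes that DESeq2 or limma-voom called at an adjusted p of 0.05, and the names mark the 8 called by both.

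Jarid2, a subunit of the Polycomb repressive complex PRC2 that helps to bring it to chromatin, had the smallest p of all genes. Its levels in NI replicates 1 to 6 were 228, 130, 211, 152, 103 and 142 CPM, and in VP64 replicates 1 to 7 they were 48.7, 76.7, 48.6, 40.4, 48.5, 42.2 and 58.7 CPM. Every VP64 library lay below every NI library. The log2 fold change was -1.63 ± 0.294 (SE, n = 7 and 6) with an adjusted p of 0.106 by edgeR, 4.4e-05 by DESeq2 and 0.0128 by limma-voom. Without the 4 libraries set apart it was -1.81 (edgeR adjusted p = 0.0258), a setting in which VP64 and NI also differed in the length measure without overlap. Ctrl libraries ran from 54.8 to 153 CPM and overlapped both groups, and VP64 was 1.01 lower than Ctrl on the log2 scale (95% interval -1.61 to -0.41, edgeR adjusted p = 0.999).

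Other PRC2 genes gave smaller differences. Suz12, the core subunit that holds the complex together, had a median of 89.3 CPM in NI and 51.1 in VP64 (log2 fold change -0.87 ± 0.282, edgeR adjusted p = 0.611). Ezh2, the methyltransferase, had -0.65 ± 0.430 (adjusted p = 0.860) and Eed, which binds the methylated histone tail, 0.09 ± 0.387 (adjusted p = 0.998). Both overlapped between the groups. Jarid2 lies on chromosome 13 at 44729474 to 44921643, plus strand (GRCm38, GENCODE vM21). The stretch before and after its first start site, chr13:44730524-44730823, is shown because Jarid2 had the smallest p; capitals mark the letters CCGCCC, a GC box, on either strand.
Jarid2 promoter: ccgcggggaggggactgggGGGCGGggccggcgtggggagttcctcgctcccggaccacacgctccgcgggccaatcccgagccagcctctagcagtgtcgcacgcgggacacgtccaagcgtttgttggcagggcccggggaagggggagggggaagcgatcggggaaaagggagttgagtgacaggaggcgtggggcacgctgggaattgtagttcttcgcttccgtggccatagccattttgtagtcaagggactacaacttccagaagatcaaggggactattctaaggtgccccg
The window holds 1 such match, and 35.7% of the 32851 mouse promoter windows of this length in RefSeq (GRCm38.p6) hold at least 1.

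Ldha, which encodes the lactate dehydrogenase subunit that turns pyruvate into lactate, had higher levels in VP64. The 6 NI libraries ran from 9.74 to 76.0 CPM (median 26.9) and the 7 VP64 libraries from 46.9 to 343 CPM (median 129). Only VP64 replicate 7, at 46.9 CPM, lay below the highest NI library, replicate 2. The log2 fold change was 2.18 ± 0.472 (edgeR adjusted p = 0.254, DESeq2 0.00276, limma-voom 0.0445). Ctrl libraries ran from 15.6 to 57.5 CPM, near NI, and VP64 was 1.77 higher than Ctrl on the log2 scale (95% interval 0.81 to 2.72, edgeR adjusted p = 0.999).

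Ldha lies on chromosome 7 at 46841475 to 46855627, plus strand. The window around the first of its 2 listed start sites, at chr7:46845554-46845853, is shown for the letters CACGTG, the E-box core bound by several basic helix-loop-helix factors, and CCGCCC, both in capitals.
Ldha promoter: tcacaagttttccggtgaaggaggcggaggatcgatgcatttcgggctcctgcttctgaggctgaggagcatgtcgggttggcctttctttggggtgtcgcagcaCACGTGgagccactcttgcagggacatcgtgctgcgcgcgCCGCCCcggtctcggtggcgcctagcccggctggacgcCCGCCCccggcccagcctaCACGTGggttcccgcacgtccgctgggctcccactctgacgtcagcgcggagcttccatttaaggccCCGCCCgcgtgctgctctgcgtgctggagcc
It holds 2 matches of CACGTG and 3 of CCGCCC on either strand, and the window of the other start site holds none. CACGTG occurs in 7.2% of the RefSeq promoter windows. Of the other 9 genes with the smallest p, promoter entries exist for Jarid2, Prps2, Slc25a31, Acer1 and Gsto1, of which Slc25a31 alone holds CACGTG, with 1 match.

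Slc25a31, a mitochondrial ADP/ATP carrier best known from germ cells, ranged from 4.03 to 8.22 CPM in NI and from 4.29 to 41.8 CPM in VP64. VP64 replicate 7 was again the library within the NI range, and the other 6 were at 13.01 CPM or more. The log2 fold change was 2.30 ± 0.527 (edgeR adjusted p = 0.254), and 2.41 without the 4 libraries (0.0470). Prps2, which makes the ribose phosphate used for nucleotide synthesis, ranged from 0.0609 to 2.12 CPM in NI and from 0.875 to 14.4 CPM in VP64 (3.05 ± 0.691, adjusted p = 0.254). VP64 replicate 3, at 0.875 CPM, was the only VP64 library inside the NI range.

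Xkr8, a phospholipid scramblase of the plasma membrane, and Acer1, an alkaline ceramidase, separated the groups completely. Xkr8 ranged from 4.87 to 11.1 CPM in NI and from 13.5 to 56.8 CPM in VP64 (log2 fold change 1.88 ± 0.433, edgeR adjusted p = 0.254). Acer1 ranged from 2.00 to 10.9 CPM in NI and from 12.95 to 38.2 CPM in VP64 (1.88 ± 0.437, adjusted p = 0.254). For each gene the Ctrl libraries overlapped NI and VP64, from 5.50 to 35.2 CPM for Xkr8 and from 5.54 to 32.5 CPM for Acer1.

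Gsto1, a glutathione transferase, had lower levels in VP64, from 106 to 199 CPM against 156 to 3114 CPM in NI. NI replicate 6 held the 3114 CPM and the other NI libraries stayed at 619 CPM or below. The log2 fold change of -2.42 ± 0.564 (edgeR adjusted p = 0.254) became -1.13 (0.217) without the 4 libraries, of which NI replicate 6 is 1.

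**Figure D3:**
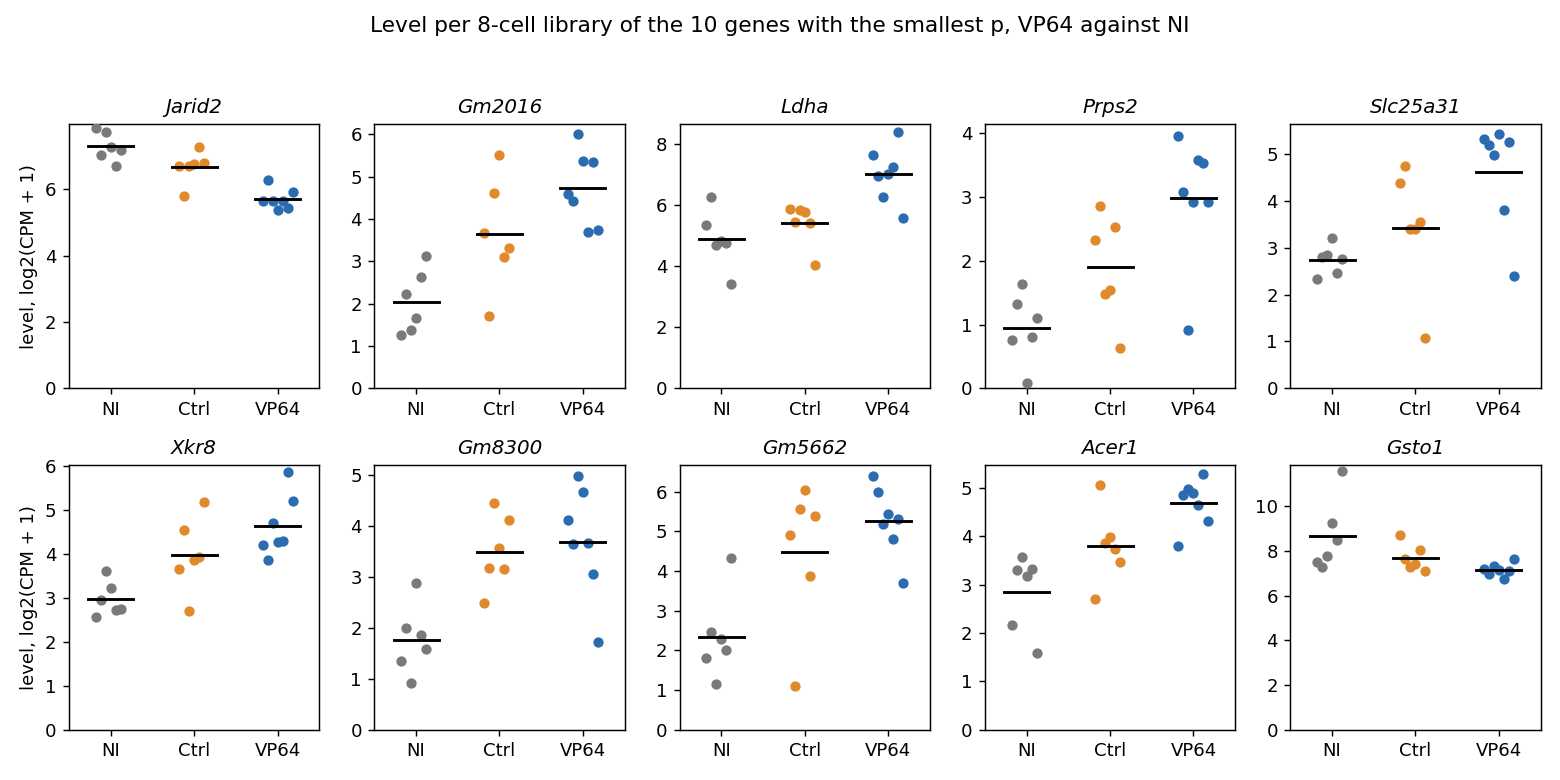
Each panel shows 1 of the 10 genes with the smallest p; points are single libraries on a log2(CPM + 1) scale in NI (6), Ctrl (6) and VP64 (7), and the black line is the mean of the log values. Jarid2, Gm2016, Xkr8 and Acer1 do not overlap between NI and VP64, and most Ctrl libraries lie between or across the other groups.

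Of the 10 genes with the smallest p, 3 (Gm2016, Gm5662 and Gm8300) belong to 1 cluster on chromosome 12 of genes that resemble Eif1a, the gene of a translation initiation factor that acts in start codon selection. Genes of this kind are transcribed in the 2-cell embryo. Of the 11 genes of the cluster in the table, between Snw1 and Adck1, 7 share stretches of sequence with Eif1a: Gm8300, Gm21319, BB287469, Gm2016, Gm2022, Gm5662 and Gm5039. All 11 were lower at the 8-cell than at the 2-cell stage in the Ctrl libraries, with log2 fold changes from -6.54 to -2.26.

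The open reading frames of these copies are 432 bases long, lie in 1 exon each and are nearly the same. The first 150 bases of 4 are shown, 5′ to 3′ from the start codon, because reads from such copies cannot be assigned to 1 of them with certainty; capitals mark a base that differs from Gm2016.
Gm2016: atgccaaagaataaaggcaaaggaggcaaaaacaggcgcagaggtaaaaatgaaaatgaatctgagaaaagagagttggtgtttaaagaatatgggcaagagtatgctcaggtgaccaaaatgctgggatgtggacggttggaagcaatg
Gm5662: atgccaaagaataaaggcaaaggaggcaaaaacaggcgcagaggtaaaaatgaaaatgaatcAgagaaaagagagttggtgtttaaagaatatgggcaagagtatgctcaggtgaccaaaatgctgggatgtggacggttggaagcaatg
Gm8300: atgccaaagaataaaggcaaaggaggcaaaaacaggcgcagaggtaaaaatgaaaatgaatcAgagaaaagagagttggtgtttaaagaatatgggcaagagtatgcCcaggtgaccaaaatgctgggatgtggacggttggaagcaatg
BB287469: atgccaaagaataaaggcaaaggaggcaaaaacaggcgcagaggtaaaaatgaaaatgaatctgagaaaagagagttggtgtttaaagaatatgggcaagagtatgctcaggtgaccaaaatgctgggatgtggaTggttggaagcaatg
Over all 432 bases, Gm5662 differs from Gm2016 at 4 positions (99.1% identity), Gm2022 at 5 (98.8%), Gm8300 at 8 (98.1%), BB287469 at 10 (97.7%), Gm5039 at 11 (97.5%) and Gm21319 at 13 (97.0%). The reading frames lie at chr12:87876585-87877016 (Gm2016, plus strand), chr12:88271557-88271988 (Gm5662, minus), chr12:87516897-87517328 (Gm8300, plus) and chr12:87819321-87819752 (BB287469, plus) in GRCm38. In whole transcripts Gm2016 and Gm5662 share 84.0% of the 31-base words of the one with fewer, and Gm2016 and Gm2022 74.6%. The level of any single copy is therefore uncertain.

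Gm2016 ranged from 1.39 to 7.73 CPM in NI (median 2.96) and from 11.9 to 63.4 CPM in VP64 (median 23.1), with no overlap. Its log2 fold change was 3.09 ± 0.620 (edgeR adjusted p = 0.225) and 4.02 without the 4 libraries (0.0470). Gm5662 ranged from 1.24 to 19.19 CPM in NI and from 12.02 to 83.6 CPM in VP64 (2.93 ± 0.682, adjusted p = 0.254; 4.06 and 0.0470 without the 4 libraries). Its 1 NI library inside the VP64 range was replicate 6, and its lowest VP64 library was replicate 7.

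Gm8300 ran from 0.883 to 6.33 CPM in NI and from 2.29 to 30.6 CPM in VP64 (2.41 ± 0.557, edgeR adjusted p = 0.254). BB287469 had a median of 2.43 CPM in NI and 23.5 CPM in VP64 (2.22 ± 0.699, adjusted p = 0.611), and 3.71 (0.0489) without the 4 libraries. Gm2022 had 2.20 ± 0.660 (0.578), and 3.61 (0.0489) without them. Both overlapped between the groups, since the highest NI values were 27.2 CPM of BB287469 in replicate 6 and 8.97 CPM of Gm2022 in replicate 5, and the lowest VP64 values were 12.3 and 2.00 CPM, both in replicate 7.

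A sum over the 7 copies does not depend on how reads were split among them. It ran from 7.79 to 63.3 CPM in NI (mean 24.6 ± 20.1, SD, n = 6), from 26.2 to 158 CPM in Ctrl (84.4 ± 50.9, n = 6) and from 43.5 to 238 CPM in VP64 (143 ± 67.3, n = 7). The mean was 5.79 times that of NI in VP64 and 3.43 times in Ctrl, and the ranges of all 3 groups overlapped. These genes were put together after their values were seen, so no test is given for the sum.

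Single copies were also higher in Ctrl than in NI. Against NI, Ctrl had log2 fold changes of 2.25 ± 0.614 for Gm2016, 2.53 ± 0.684 for Gm5662 and 2.03 ± 0.564 for Gm8300, with unadjusted edgeR p of 0.00128, 0.00114 and 0.00148, none of which passed after adjustment. VP64 against Ctrl gave 0.84 for Gm2016 (95% interval -0.30 to 1.99), 0.40 for Gm5662 (-0.87 to 1.67) and 0.38 for Gm8300 (-0.68 to 1.44). These intervals include 0 and also include more than a doubling. The comparisons of VP64 and of Ctrl with NI share the NI libraries.

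The other 4 genes of the cluster share no such stretch with Eif1a. Gm16381, Gm1995, Gm2042 and Gm7104 had smaller log2 fold changes, 0.66, 0.47, 0.27 and 0.21, with unadjusted edgeR p from 0.268 to 0.805. Eif1a itself, on chromosome 18, had 0.07 ± 0.351 (adjusted p = 0.998), with 97.9 to 454 CPM in NI and 216 to 346 CPM in VP64. Among the 7 copies Gm21319 had the smallest difference, at 0.86 ± 0.675, and Gm5039 had 2.67 ± 0.846 from levels of at most 2.62 CPM in NI and 14.6 CPM in VP64.

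**Figure D4:**
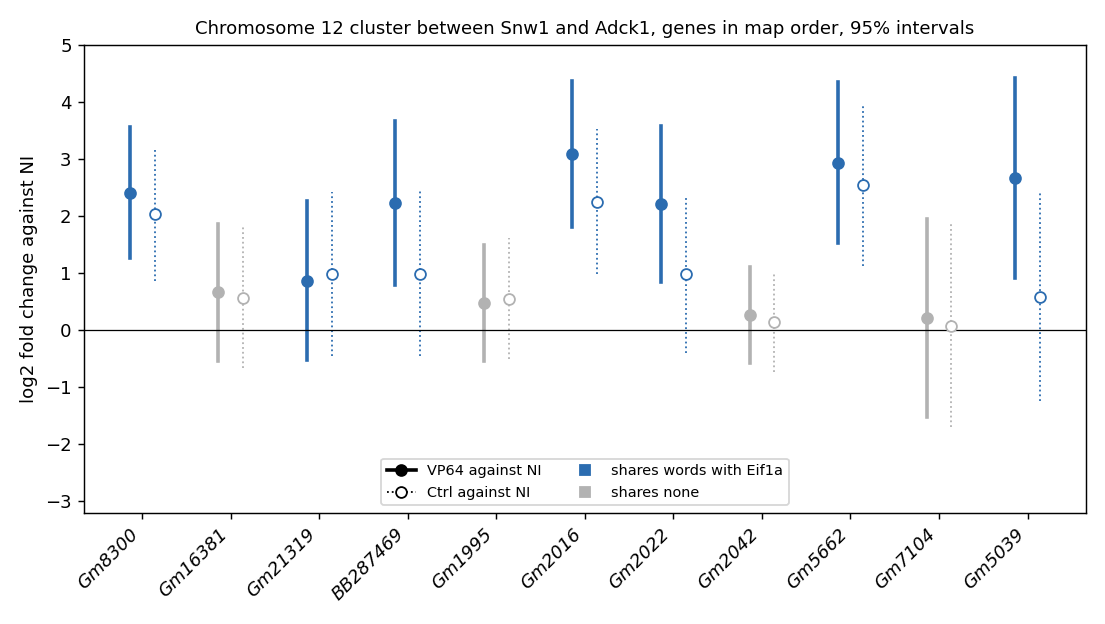
The 11 cluster genes stand in map order on the x axis, and the y axis is the log2 fold change against NI with its 95% interval by edgeR: filled points for VP64, open points for Ctrl. Blue genes share 31-base words with Eif1a; 6 of these 7 have VP64 intervals above 0, and all 4 grey genes have intervals that include 0.

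RefSeq has promoter entries for BB287469 and Gm21319 among the 7 copies. Both windows are shown because these copies have different fold changes and related upstream sequence; capitals mark words of 12 bases that occur in both.
BB287469, chr12:87816327-87816626, plus strand: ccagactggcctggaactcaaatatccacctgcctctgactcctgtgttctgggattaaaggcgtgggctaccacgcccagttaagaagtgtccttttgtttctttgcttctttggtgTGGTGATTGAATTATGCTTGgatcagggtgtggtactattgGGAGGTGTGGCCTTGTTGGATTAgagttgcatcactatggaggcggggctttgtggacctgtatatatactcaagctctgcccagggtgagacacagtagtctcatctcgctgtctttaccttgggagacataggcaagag
Gm21319, chr12:87775706-87776005, minus strand: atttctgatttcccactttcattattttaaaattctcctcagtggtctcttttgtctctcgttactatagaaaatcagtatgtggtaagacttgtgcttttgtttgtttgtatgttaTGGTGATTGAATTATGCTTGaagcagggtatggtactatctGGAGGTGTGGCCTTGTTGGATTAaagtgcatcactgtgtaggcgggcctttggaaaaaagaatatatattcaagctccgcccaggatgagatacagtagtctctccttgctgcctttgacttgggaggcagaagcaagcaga
The 2 windows share 21 words, which cover 43 bases of each. Of the other 32849 promoter windows, 104 (0.32%) hold at least 1 of these words and 2 hold at least 10. The difference in fold change between BB287469 and Gm21319 was not tested.

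Genes of the 2-cell embryo as a whole were followed through a list of 77 genes, of which 62 are in the table and 42 passed the filter on low counts. By edgeR 12 of the 42 (28.6%) had higher levels in VP64 at an unadjusted p under 0.05, against 3.77% of all genes, and 0 had lower levels. The median log2 fold change was 0.21 against -0.07 over all genes. The 12 include 5 of the Eif1a-like copies, and without that family the count was 7 of 37. The filter looked at all groups of the stage, so a near-silent gene could enter through the group where it was high. Usp17lc, at a mean of 0.869 CPM in NI, 0.302 in Ctrl and 3.75 in VP64, could pass only with its VP64 libraries. The share among the 42 is therefore no test of the list, and how many members entered this way was not counted. Leaving out the 4 libraries gave 15 higher and 1 lower of 44, where 7.57% of all genes were higher, and leaving out VP64 replicate 6 gave 11 higher and 1 lower, where 1.72% were higher. The list's mean log2(CPM + 1) ran from 3.61 to 4.37 in NI, from 4.28 to 4.46 in Ctrl and from 3.90 to 4.88 in VP64.

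The members outside the Eif1a-like family are named here after their values were seen. Usp17lb and Usp17lc, deubiquitinases of a multicopy family, had medians of 1.55 and 0.743 CPM in NI and 6.87 and 4.42 CPM in VP64 (log2 fold changes 2.29 ± 0.780 and 2.07 ± 0.810, edgeR adjusted p = 0.623 and 0.672). Gm4850 had 2.48 ± 0.886 (adjusted p = 0.623), and Gm8994 1.87 ± 0.658 (adjusted p = 0.623). Arg2, the mitochondrial arginase, had 2.22 to 21.3 CPM in NI and 12.3 to 54.2 CPM in VP64 (1.27 ± 0.515, adjusted p = 0.672), and Ddit4l, an inhibitor of the mTOR pathway, 0.84 ± 0.369 (adjusted p = 0.672). Spz1, a helix-loop-helix factor known from testis, did not overlap between NI (at most 2.01 CPM) and VP64 (at least 2.05 CPM).

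Among better known genes of the stage, Zfp352, a retrotransposon-derived zinc finger gene of the 2-cell embryo, reached 5.22 CPM in NI and 9.54 CPM in VP64 (0.98 ± 0.769, adjusted p = 0.919), and Obox3 2.58 and 7.16 CPM (1.56 ± 0.920, adjusted p = 0.809). The most abundant tested members, Fbxo15 (0.02 ± 0.452) and the homeobox gene Obox6 (-0.05 ± 0.401), overlapped widely. In the Ctrl libraries both were higher at the 8-cell than at the 2-cell stage, with log2 fold changes of 3.27 and 2.96. Of the 9 marker genes of the 2-cell embryo, the 6 tested all had positive fold changes. The filter could admit a near-silent gene through VP64, as with Usp17lc, so their shared sign is no support for a difference. The sum of the 9 ran from 10.1 to 67.1 CPM in NI, from 8.77 to 88.4 CPM in Ctrl and from 30.1 to 86.3 CPM in VP64.

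Maternal oocyte transcripts, 44 tested, gave 1 higher and 0 lower, against 3.77% and 3.4% of all genes, with a median of 0.03. Without the 4 libraries 4 of 48 were higher and 3 lower, where 7.57% and 7.45% of all genes were. The 1 gene of the full set was Uchl1, a deubiquitinase abundant in oocytes, with 7.37 to 23.2 CPM in NI and 23.8 to 51.2 CPM in VP64 (1.19 ± 0.351, edgeR adjusted p = 0.571). Its Ctrl libraries ran from 7.04 to 19.97 CPM, below every VP64 library. The most abundant members were Dppa3, which protects the maternal genome from demethylation (0.24 ± 0.565), and Khdc3, of the subcortical maternal complex (-0.91 ± 0.447, adjusted p = 0.698). Oocyte marker sums were 44.1 to 163 CPM in NI and 40.4 to 153 CPM in VP64.

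Genes were also split by stage with the Ctrl libraries alone: of 10779 genes, 3786 (35.1%) were lower and 2087 (19.4%) higher at the 8-cell than at the 2-cell stage. Of the first class 2295 were tested between VP64 and NI, with a median of -0.04, 59 higher (2.57%) and 55 lower (2.40%) at an unadjusted p under 0.05. The second class, 2087 genes, had a median of -0.12, with 59 higher (2.83%) and 86 lower (4.12%). Both medians lie within 0.05 of the value over all genes, and each share is near the 3.77% and 3.4% of all genes.

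Trophectoderm genes tended to lower values in VP64. Of 28 tested members, 6 were lower (21.4%) and 1 higher at an unadjusted edgeR p under 0.05, against 3.4% of all genes lower, and the median was -0.46. Without the 4 libraries 9 of 30 were lower, where 7.45% of all genes were, and without VP64 replicate 6 4 were lower, where 2.25% were. The 6 marker genes summed to 250.7 to 427.1 CPM in NI, 95.04 to 222.3 CPM in VP64 and 84.4 to 338.7 CPM in Ctrl, so for these markers NI and VP64 did not overlap. In Ctrl only replicate 6, at 84.4 CPM and 1 of the 4 libraries set apart by transcript length, was low. The next lowest Ctrl library, replicate 3 at 248.8 CPM, lay above every VP64 library. Over the whole list NI and VP64 overlapped: its mean log2(CPM + 1) spanned 4.22 to 5.43 over the NI libraries and 4.36 to 5.14 over the VP64 libraries. NI replicate 5, at 4.22, lay below every VP64 library, and the other 5 NI libraries, at 5.19 or more, lay above them all. In pooled embryos, fewer cells of a kind and less RNA per cell cannot be told apart.

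Tead4, the DNA-binding partner of YAP1 that turns on the trophectoderm programme, had lower values in VP64. It ranged from 143 to 249 CPM in NI and from 49.2 to 134 CPM in VP64, with no overlap (log2 fold change -0.93 ± 0.323, edgeR adjusted p = 0.623). Cdx2, the master regulator of trophectoderm, ranged from 1.12 to 61.4 CPM in NI (median 16.8) and from 1.15 to 12.6 CPM in VP64 (median 4.81; -2.08 ± 0.664, adjusted p = 0.611), and Gata3, a further regulator of the lineage, from 10.8 to 62.6 CPM and from 6.51 to 17.0 CPM (-1.22 ± 0.391, adjusted p = 0.611). Both genes overlapped between the groups: for Cdx2, NI replicate 2 lay within the VP64 range and NI replicate 5, at 1.12 CPM, just below it, and for Gata3 NI replicate 5 lay within it.

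The keratins of the later trophectoderm, Krt8 (-0.18 ± 0.494) and Krt18 (-0.80 ± 0.462), had unadjusted p of 0.717 and 0.0946. Dppa1 was at 0.875 CPM or less in every NI and VP64 library. The most abundant members were Sfn, a 14-3-3 protein (-0.81 ± 0.440, adjusted p = 0.759), and Sox15 (-0.30 ± 0.388). Mbnl3, a splicing regulator, was the 1 member with higher values, from 4.32 to 33.5 CPM in NI and from 24.1 to 75.6 CPM in VP64 (1.49 ± 0.480, adjusted p = 0.611).

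The Hippo pathway, a kinase cascade that keeps YAP1 out of the nucleus of inner cells, had 26 tested genes, of which 6 (23.1%) were lower and 0 higher, against 3.4% of all genes lower, with a median of -0.51. They comprise its effectors (Yap1 -0.67 ± 0.312 and Tead4), its kinases (Lats2 -0.78 ± 0.353, Taok1 -1.21 ± 0.428), the scaffold Wwc2 (-0.88 ± 0.288) and the TEAD cofactor Vgll4 (-1.24 ± 0.548). Genes that promote and genes that restrain YAP1 activity are both among them. The count was 4 without the 4 libraries, where 7.45% of all genes were lower. It was 3 without VP64 replicate 6, where 2.25% were, and 3 without NI replicate 6. With library totals in place of TMM factors it was 3.

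Compaction, polarity and junction genes gave 7 lower (14.9%) and 1 higher of 47 tested, against 3.4% of all genes lower, with a median of -0.26. Llgl1, a basolateral polarity protein, ranged from 13.8 to 30.5 CPM in NI and from 0.573 to 10.9 CPM in VP64, with no overlap (-1.42 ± 0.435, edgeR adjusted p = 0.598). Cdh1, the E-cadherin of compaction, overlapped widely (-0.90 ± 0.417, adjusted p = 0.672), as did Cgn, a tight junction protein (-1.45 ± 0.481, adjusted p = 0.623). Emp2, a tetraspan membrane protein (-1.73 ± 0.498, adjusted p = 0.571), had 1 NI library at 36.9 CPM, replicate 6, and 9.71 CPM or less in the others. Cldn6, a claudin of early epithelia, was the higher one (1.39 ± 0.666, adjusted p = 0.689), and none was higher without VP64 replicate 6. The lower count was 9 of 48 without the 4 libraries, where 7.45% of all genes were lower, and 4 without either NI replicate 3 or VP64 replicate 4.

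Pluripotency and inner cell mass genes gave 6 lower (16.7%) and 0 higher of 36 tested, against 3.4% of all genes lower, with a median of -0.36. Tbx3, a T-box factor of naive pluripotency, ranged from 37.5 to 425 CPM in NI and from 16.2 to 93.9 CPM in VP64 (-1.84 ± 0.585, edgeR adjusted p = 0.611). Tfcp2l1 had -1.38 ± 0.493 (adjusted p = 0.623) and Klf4 -1.09 ± 0.450 (adjusted p = 0.672). Of the core factors, Nanog had higher values in VP64. It ranged from 125 to 1107 CPM in NI and from 457 to 2703 CPM in VP64 (1.19 ± 0.587, edgeR adjusted p = 0.698), and was highest in VP64 replicates 6 and 7. Pou5f1, the gene of OCT4, had -0.91 ± 0.518 (adjusted p = 0.786), the direction of the lower members. Inner cell mass marker sums overlapped, at 718 to 2275 CPM in NI and 1005 to 3292 CPM in VP64. The lower count was 10 of 37 without the 4 libraries, where 7.45% of all genes were lower, and 3 without NI replicate 6.

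Primitive endoderm and FGF signalling genes, 21 tested, gave 3 lower (14.3%, against 3.4% of all genes) and 1 higher, with a median of -0.08, and 1 lower without NI replicate 6. Marker sums ran from 77.7 to 114 CPM in NI and from 35.7 to 108 CPM in VP64. The most abundant members, the FGF antagonist Spry2 (0.18 ± 0.888) and the adaptor Grb2 (-0.03 ± 0.302), were near 0.

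DNA and histone methylation genes gave 8 lower (12.3%) and 0 higher of 65 tested, against 3.4% of all genes lower, with a median of -0.34, and Jarid2 and Suz12 are among the 8. Setd2, which trimethylates H3K36 in transcribed genes, ranged from 39.5 to 126 CPM in NI and from 34.1 to 56.4 CPM in VP64 (-0.89 ± 0.309, edgeR adjusted p = 0.623). Setdb1, the H3K9 methyltransferase that silences endogenous retroviruses, had -0.80 ± 0.318 (adjusted p = 0.672), Kdm2b, which recruits Polycomb complexes to CpG islands, -0.87 ± 0.337 (adjusted p = 0.672), and Tet2, a methylcytosine oxidase, -1.46 ± 0.511 (adjusted p = 0.623). All 4 overlapped between the groups. Without the 4 libraries 17 of 67 were lower, where 7.45% of all genes were, and without VP64 replicate 6 7 were. With library totals in place of TMM factors the count was 5.

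Chromatin assembly, remodelling and acetylation genes gave 5 lower (6.58%) and 1 higher of 76, against 3.4% and 3.77% of all genes, with a median of -0.27. Arid1a, the DNA-binding subunit of the BAF remodeller, ranged from 57.9 to 138 CPM in NI and from 34.1 to 65.1 CPM in VP64 (-0.83 ± 0.299, adjusted p = 0.623 by edgeR). The lower count ran from 1 (without VP64 replicate 1, 4 or 6) to 7 (without VP64 replicate 5) when single libraries were left out. It was 12 without the 4 libraries, where 7.45% of all genes were lower. Replication-dependent histones, 13 tested, gave 0 in either direction with a median of -0.24, and 2 higher of 14 with a median of 0.60 without the 4 libraries.

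Genes known to silence retrotransposons, 47 tested, gave 2 higher (4.26%) and 2 lower, near the shares of all genes, with a median of -0.03. The counts moved with single libraries: 7 were lower without Ctrl replicate 6 and 4 without NI replicate 2, and 4 were higher without NI replicate 4. In the set without the 4 libraries 5 were higher and 6 lower, where 7.57% and 7.45% of all genes were. Mael, a piRNA pathway protein, had 7.16 to 25.9 CPM in NI and 10.6 to 46.8 CPM in VP64 (1.13 ± 0.403, edgeR adjusted p = 0.623), and Trim28, the KAP1 corepressor, had -0.53 ± 0.264 (adjusted p = 0.704). Zinc finger regulators of repeats and imprints gave 5 lower (14.7%) and 1 higher of 34, against 3.4% of all genes lower, with a median of -0.23. Zfp568, a repressor needed in the early embryo, ranged from 49.5 to 122 CPM in NI and from 20.6 to 44.6 CPM in VP64, with no overlap (-1.10 ± 0.294, adjusted p = 0.443). The lower zinc finger count was 1 without VP64 replicate 6 or NI replicate 3, 2 without VP64 replicate 4 or 5 or NI replicate 6, 3 without VP64 replicate 1 or NI replicate 1, and 3 without the 4 libraries.

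Glycolysis, glucose uptake and pyruvate genes gave 3 higher (10%) and 2 lower of 30, against 3.77% and 3.4% of all genes, with a median of 0.23. Beside Ldha these were Gpi1, the isomerase of the second step of glycolysis (20.02 to 55.1 CPM in NI, 47.0 to 98.2 CPM in VP64; 1.08 ± 0.369, edgeR adjusted p = 0.623), and Gapdh (25.8 to 153 CPM and 21.2 to 211 CPM; 1.15 ± 0.491, adjusted p = 0.672). The 2 lower ones were Slc2a3, the glucose transporter GLUT3 (-1.46 ± 0.593, adjusted p = 0.672), and Fbp2, a gluconeogenic phosphatase (-1.09 ± 0.415, adjusted p = 0.672). The most abundant members, the mitochondrial pyruvate carriers Mpc1 (0.08 ± 0.401) and Mpc2 (0.43 ± 0.583), were close to 0. The higher count was 5 without the 4 libraries, where 7.57% of all genes were higher, 5 without VP64 replicate 7 and 7 without NI replicate 2.

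Genes of the cytosolic ribosome and of respiration gave no member past the threshold in the full set. Of 81 cytosolic ribosomal protein genes 0 passed the unadjusted threshold and the median was 0.02, and of 76 nuclear genes of oxidative phosphorylation 0 passed and the median was 0.14. They moved with the libraries set apart by transcript length, whose part in the result was not tested: the mean log2(CPM + 1) of ribosomal protein genes was 11.04 in NI replicate 6, 10.2 in NI replicate 5 and 10.5 in VP64 replicate 7, against 8.95 to 9.47 in the other NI libraries. Without the 4 libraries 18 of 81 ribosomal protein genes (median 0.59) and 25 of 76 oxidative phosphorylation genes (median 0.60) were higher and 0 lower, where 7.57% of all genes were higher. In that setting VP64 replicate 6, at 10.7 for ribosomal protein genes, remained among the VP64 libraries.

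Ribosome biogenesis genes gave 0 higher and 6 lower (10.2%) of 59, against 3.4% of all genes lower, with a median of -0.22. The lower count was 15 without the 4 libraries, where 7.45% of all genes were lower. It was 0 without VP64 replicate 3, 1 without VP64 replicate 4 or 6 or NI replicate 3, and 2 without VP64 replicate 2 or 7. Mitochondrial ribosomal proteins (0 higher and 1 lower of 76), proteasome subunits (0 and 0 of 39), translation factors (0 and 2 of 47) and splicing factors (0 and 3 of 52) had from 0% to 5.77% of members past the unadjusted threshold in 1 direction. Leaving out the 4 libraries moved these too, to 10 higher and 1 lower for mitochondrial ribosomal proteins (median 0.28), 0 and 5 for translation factors and 6 and 4 for splicing factors, where 7.57% of all genes were higher and 7.45% lower. Translation factors had 0 lower without NI replicate 1 or 3, and the proteasome 2 lower without VP64 replicate 7. Npm1, the most abundant ribosome biogenesis member, had -0.38 ± 0.364, Atp5b of the ATP synthase 0.16 ± 0.420, and Rpl41 0.17 ± 0.439. Sf3b3, a splicing factor, ranged from 38.7 to 200.2 CPM in NI and from 16.8 to 45.3 CPM in VP64 (-1.53 ± 0.407, edgeR adjusted p = 0.443).

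Targets of p53 and DNA damage genes gave 6 higher (12.2%) and 2 lower of 49, against 3.77% of all genes higher, with a median of 0.11. Bbc3, the pro-apoptotic PUMA, ranged from 0.374 to 4.87 CPM in NI and from 1.43 to 27.5 CPM in VP64 (2.39 ± 0.812, edgeR adjusted p = 0.623). Zmat3, an RNA-binding p53 target, had 1.40 ± 0.421 (adjusted p = 0.578), the death receptor Tnfrsf10b 1.39 ± 0.450 (adjusted p = 0.611), and Plk2, a stress-induced kinase, 1.93 ± 0.790 (adjusted p = 0.672). All 4 overlapped between the groups. Their highest VP64 library differed, being replicate 4 for Bbc3, 1 for Zmat3, 6 for Tnfrsf10b and 5 for Plk2. The higher count was 8 without the 4 libraries, where 7.57% of all genes were higher, and 4 without VP64 replicate 6, where 1.72% were.

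Other stress and cell cycle lists were nearer the background in the full set, where 3.77% of all genes were higher and 3.4% lower. Integrated stress, unfolded protein and heat shock genes gave 2 higher and 0 lower of 58, with Gclm, of glutathione synthesis, at 1.78 ± 0.617 (edgeR adjusted p = 0.623) and the chaperone Hspa8 at -0.82 ± 0.572. Apoptosis and autophagy genes gave 1 and 0 of 37, DNA replication genes 2 and 1 of 56, and mitosis genes 4 and 2 of 55. Without the 4 libraries 9 of 56 DNA replication genes and 8 of 55 mitosis genes were lower, where 7.45% of all genes were, and 4 stress genes were higher and 2 lower. The 2 higher DNA replication genes became 0 without VP64 replicate 6, NI replicate 1 or NI replicate 6. The 4 higher mitosis genes became 0 without NI replicate 4 and 2 without NI replicate 1, 2 or 6 or VP64 replicate 7, and the 2 lower ones 4 without Ctrl replicate 3. Stress genes had 4 higher without NI replicate 2 or Ctrl replicate 6. Ccnb1, the mitotic cyclin, had -0.33 ± 0.414 and Ccna2 0.38 ± 0.428. Interferon and nucleic acid sensing genes gave 2 higher (10.5%) of 19, against 3.77% of all genes, and 5 of 20 without the 4 libraries, where 7.57% were. The higher count was 0 without VP64 replicate 6, 1 without VP64 replicate 7 or NI replicate 1 or 4, and 4 without NI replicate 2. Of the 2 higher interferon genes Xaf1, an interferon-induced pro-apoptotic protein, ranged from 49.5 to 580 CPM in NI and from 294 to 1979 CPM in VP64 (1.48 ± 0.624, edgeR adjusted p = 0.672), with VP64 replicates 6 and 7 highest.

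In the remaining lists at most 2 genes passed in either direction in the full set, where 3.77% of all genes were higher and 3.4% lower. Lipid and cholesterol metabolism had 0 higher and 2 lower of 43, among them the fatty acid carrier Fabp5 (-2.14 ± 0.728, edgeR adjusted p = 0.623), for which NI replicate 6 was at 507 CPM and the other 12 libraries at 81.5 CPM or less. tRNA synthetase and amino acid genes had 0 and 2 of 37, imprinted genes 0 and 1 of 30, X chromosome activity genes 2 and 2 of 28, cumulus and granulosa genes 1 and 0 of 8, and sperm genes 0 and 0 of 3. X chromosome genes gave 0 in either direction without VP64 replicate 6, 0 lower without VP64 replicate 4 and 5 lower without NI replicate 4. The 1 cumulus and granulosa gene was lost without VP64 replicate 6. In the set without the 4 libraries the lower counts were 5 for tRNA synthetase and amino acid genes and 4 of 44 for lipid genes, where 7.45% of all genes were lower.

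**Figure D5:**
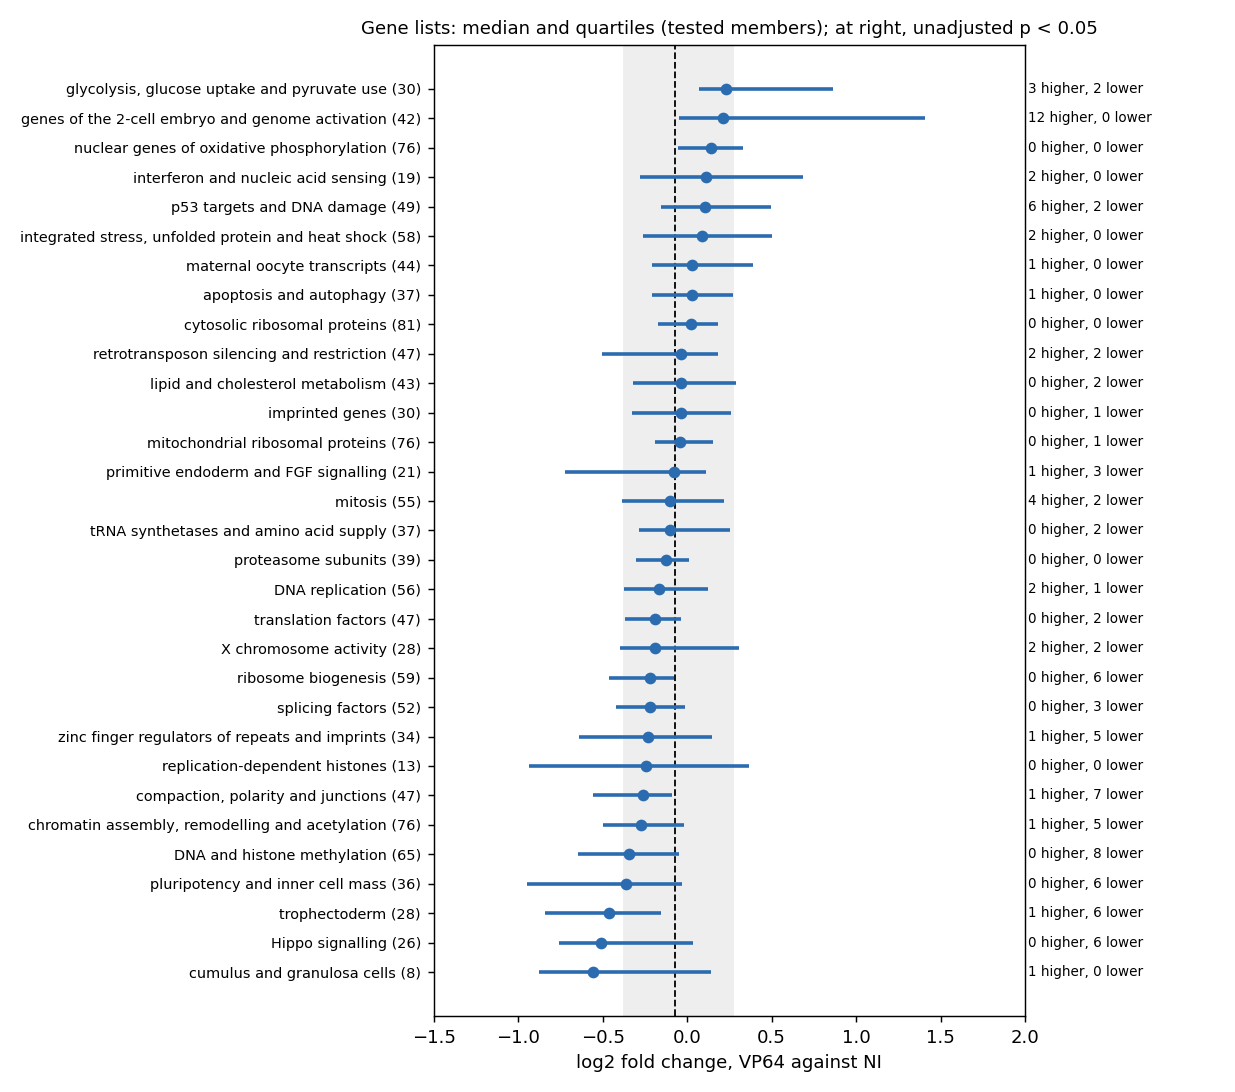
For each list with at least 5 tested genes (number in brackets) the point is the median log2 fold change of VP64 against NI and the bar spans the quartiles; the grey band and dashed line are the quartiles and the median, -0.07, of all 9850 genes. Counts at the right are members at an unadjusted edgeR p under 0.05; the list of the 2-cell embryo has the most higher ones (12), and DNA and histone methylation the most lower ones (8).

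In 42 genes the VP64 and NI libraries did not overlap, 20 with VP64 higher (0.203% of all genes) and 22 with VP64 lower (0.223%). Those named below, unless given before, were chosen after their values were seen. Among the lower ones Tbx20, a T-box factor, ran from 13.8 to 34.1 CPM in NI and from 2.58 to 9.77 CPM in VP64 (-1.45 ± 0.348, adjusted p 0.302 by edgeR, 0.0193 by DESeq2 and 0.0445 by limma-voom), and Xpr1, a phosphate exporter, from 42.6 to 67.02 CPM and from 16.5 to 31.9 CPM (-1.13 ± 0.279, edgeR adjusted p = 0.357, DESeq2 0.0111). The transcription factor Sp1, which binds GC boxes, ran from 14.3 to 41.8 CPM in NI and from 7.44 to 13.01 CPM in VP64 (-1.34 ± 0.358, edgeR adjusted p = 0.443). Each of these 3 was lower in all 7 VP64 libraries than in any NI library.

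Among the higher ones Glrx, a glutaredoxin, ran from 0 to 3.74 CPM in NI and from 6.12 to 31.7 CPM in VP64 (2.48 ± 0.634, edgeR adjusted p = 0.396, DESeq2 0.0140), and Cd47, the membrane protein that inhibits phagocytosis, from 0 to 1.41 CPM and from 1.63 to 3.44 CPM (2.65 ± 0.823, edgeR adjusted p = 0.611, limma-voom 0.0485). Afp, the fetal serum protein, ran from 0 to 1.11 CPM in NI and from 1.63 to 4.71 CPM in VP64. In Ctrl it reached 78.8 CPM, and DESeq2 called it, alone (0.00565% of genes), between Ctrl and NI (log2 fold change 4.90 ± 0.964, adjusted p = 0.00656). Uchl1, Spz1, Xkr8, Acer1 and Gm2016 belong to the same 20. The filter looked at all groups of the stage, so genes near silent in NI could enter through the groups where they were higher. Cd47, at a mean of 0.371 CPM in NI, 1.45 in Ctrl and 2.75 in VP64, is such a gene, and Afp and Spz1 were also low in NI. The count of 20 is therefore no test, and how many entered this way was not counted.

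The Ctrl libraries gave no gene at an adjusted p of 0.05 by edgeR against either group (0% in each). At an unadjusted p under 0.05, VP64 against Ctrl gave 393 genes (3.99%; 1.54% higher, 2.45% lower in VP64) and Ctrl against NI 429 (4.36%; 3.2% higher, 1.16% lower in Ctrl). DESeq2 called 1 gene of those it tested (0.00565%) in VP64 against Ctrl, the aminopeptidase Enpep (-3.69 ± 0.776, adjusted p = 0.0349), and limma-voom called none in either. Enpep was at 0.875 CPM or less in all VP64 libraries, at up to 7.06 CPM in NI and at up to 15.1 CPM in Ctrl. VP64 against Ctrl is also the test of whether the difference from NI was larger in VP64 than in Ctrl, and by edgeR it was not shown for any gene after adjustment.

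For the 10 genes with the smallest p, VP64 against Ctrl is given by its estimates and unadjusted intervals, and differences between genes were not tested. The genes were picked by their p in VP64 against NI, which uses the same VP64 libraries. These intervals are therefore no independent support. For Jarid2 and Ldha the 95% interval of VP64 against Ctrl excluded 0 by the widest margins, and Slc25a31 (1.17, interval 0.13 to 2.21) and Prps2 (1.36, interval 0.07 to 2.65) also excluded it before adjustment. For Gm2016, Gm5662, Gm8300, Xkr8 (0.64, interval -0.22 to 1.497), Acer1 (0.81, interval -0.06 to 1.68) and Gsto1 (-0.63, interval -1.76 to 0.49) the interval included 0. The bounds nearest 0 were close together for Prps2 and Acer1, and Ctrl against NI gave 1.12 for Slc25a31, 1.07 for Acer1 and 1.24 for Xkr8 on the log2 scale.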

How the data were processed

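The authors deposited 1 table of 23845 genes by 36 libraries. Its values are expected counts deposited by the authors. The submitters' processing notes name Bowtie2, RSEM and the mm10 build, with no version and no annotation. RSEM divides reads that match several genes by estimated share, so near-identical copies are uncertain. Expected counts were rounded; 9.37% of the 8-cell values were not whole. Library totals ran from 1103574 to 13583527, and the lower the total, the less precise a low gene's level.

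Groups were taken from the labels. All 19 libraries of 8-cell embryos entered 1 fit in edgeR 4.0.16 (R 4.3.3): TMM factors, filterByExpr (minimum count 10, minimum total 15), the robust quasi-likelihood test and Benjamini-Hochberg adjustment over 9850 genes, at 0.05. CPM are counts scaled to library totals and TMM factors. The stage check took its TMM factors from a fit of all 36 libraries. Fold changes are VP64 over NI on the log2 scale unless another pair is named. Stage classes came from the Ctrl libraries (adjusted p under 0.05, log2 fold change of at least 1). Depth measures were compared by exact permutation. DESeq2 1.42.0 and limma 3.58.1 (voom with sample weights), other scalings, filters and covariates, and leaving out each library were the alternatives. The code was tested on simulated data.

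The rule for naming was the 10 genes with the smallest p and the 2 most abundant tested members of each of 32 lists; other genes are named after their values were seen. The lists and the comparison were chosen with earlier results of these data known. Promoter windows, from 250 bases before to 50 after a start, are from RefSeq (GRCm38.p6), and gene coordinates from GENCODE vM21 (GRCm38). One result is not reported here.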

Additional observations from a re-analysis of the deposited data

Results flagged for a closer look

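Single libraries far from the rest of their group were looked for in 218 sets of values, each of 1 gene or 1 library property in 1 group. A gap was found in 27 of them (12.4%), where chance gives about 1 in 20. The genes were those of the text, many named after their values were seen, so the share cannot be weighed against that rate. VP64 replicate 7, 1 of the libraries set apart by transcript length, accounted for 15 of the 27.

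VP64 replicate 7 was highest of its group for Cbx3, a heterochromatin protein, at 10138 CPM with the next library at 1091 CPM, for H3f3b, a histone H3.3 gene, at 10078 CPM (next 3694), for Nhp2 at 3959 CPM (next 1294), for Obox6 at 3936 CPM (next 1540) and for Gja1, the gap junction protein connexin 43, at 1404 CPM (next 195). It was lowest for Atp5b at 331 CPM (next 1032), Ccna2 at 256.5 CPM (next 681), Ei24 at 49.8 CPM (next 305), Gapdh at 21.2 CPM (next 85.3), Zfp568 at 20.6 CPM (next 33.3), Tbx20 at 2.58 CPM (next 7.17), Slc2a3 at 2.00 CPM (next 11.9), Llgl1 at 0.573 CPM (next 4.40), Gm8994 at 0.286 CPM (next 6.51) and Usp17lc at 0 CPM (next 2.44).

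VP64 replicate 6 was highest for the steroid synthesis genes Hsd3b1 at 208 CPM (next 0.465) and Cyp11a1 at 97.4 CPM (next 0), and for Npm1 at 7917 CPM (next 4384). VP64 replicate 3 was lowest for Prps2 at 0.875 CPM (next 6.58) and highest for Dppa1 at 0.875 CPM (next 0.114). VP64 replicate 1 was lowest for Ccnb1 at 1890 CPM (next 2200.3).

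Among the NI libraries, replicate 3 was highest for Sf3b3 at 200.2 CPM (next 59.4), replicate 1 for Xpr1 at 67.02 CPM (next 46.2), replicate 6 for Emp2 at 36.9 CPM (next 9.71) and replicate 4 for Cyp11a1 at 0.122 CPM (next 0). NI replicate 2 was lowest for the glutamate receptor gene Grin1 at 5.22 CPM (next 12.9) and for Glrx at 0 CPM (next 1.70).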

How the results depend on the processing

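Beside the values in the report, 32 other settings were run, 19 of which left out 1 library each. Between VP64 and NI, DESeq2 called 21 genes (14 higher and 7 lower), with 1087 of 17696 at an unadjusted p under 0.05. By limma-voom 14 were called (11 higher and 3 lower), with 1497 of 9850 at that threshold. Leaving out the 4 libraries set apart by transcript length gave 6 (5 higher and 1 lower), with 1532 of 10203. With no filter on low counts 1636 of 17836 genes had an unadjusted p under 0.05, against 706 of 9850 in the main fit. DESeq2 called 1 gene between VP64 and Ctrl and 1 between Ctrl and NI. The cause of these differences was not tested. Leaving out 1 library gave no adjusted call by edgeR and between 390 and 956 genes at an unadjusted p under 0.05. The difference in genes detected ran from 261 to 729 and that in the share of the 50 most abundant genes from -1.60 to 0.461 percentage points. Counting genes with at least 5 counts and no thinning, VP64 minus NI was -64.5 genes (exact permutation p = 0.935), and for the 10 most abundant genes the difference in share was 0.472 points (p = 0.715, exact permutation). Stage classes held 1390 genes higher at the 8-cell stage at a log2 fold change of at least 2, and 5836 lower ones by DESeq2. Over 80 genes and 2554 pairs of gene and setting, 137 fold changes changed sign, all of genes called in neither fit. List counts moved when 1 library was left out: lower members ran from 0 to 7 for ribosome biogenesis, from 1 to 7 for chromatin assembly and for retrotransposon silencing, from 6 to 12 for methylation and from 0 to 5 for X chromosome genes, and higher members from 2 to 7 for glycolysis, from 0 to 4 for mitosis and from 1 to 4 for stress genes and for retrotransposon silencing. No paired analysis was possible because the labels give no replicate numbers that tie libraries across groups. Depth limits genes of few CPM: the smallest library held 1103574 counts.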
